A study of Mus musculus with 13 samples.

Results

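Tac1 and Cartpt, the genes of 2 neuropeptide precursors, were followed through single cells of the mouse medial amygdala, an area at the base of the forebrain known for processing social and olfactory signals. Both were chosen by name among the 16961 genes of the deposited table. They were described across the authors' 8 cell classes and, among neurons, in cells with a UMI of Slc32a1 (the vesicular GABA transporter) and none of Slc17a6 (a vesicular glutamate transporter), or the reverse. Cells came from naive male (6 libraries) and naive female (7 libraries) C57BL/6J mice, housed alone for at least 1 day on a reversed light cycle. Mice were 8 weeks old for male replicates 3 and 5 and female replicate 3, and 9 weeks old for the other libraries. Cells were dissociated with Act-seq, which blocks transcription during the procedure, and went through Drop-seq, in which each captured mRNA carries a molecular tag, the UMI, and is counted once. The labels do not say whether the libraries came from separate animals, so p-values measure the spread between libraries, which may be technical.

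Tac1 encodes the precursor of the tachykinins substance P and neurokinin A, which act mainly through the receptors encoded by Tacr1 and Tacr2. Cartpt encodes the precursor of CART peptides, which are known for roles in feeding, reward and stress. Both precursors are cut by prohormone convertases and stored in dense-core vesicles, and both are found in subsets of amygdala neurons.

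After filtering, 24539 of 43388 deposited cells remained, 1152 to 2908 per library with 3735940 to 7863920 UMIs. Of 10166 deposited neurons 3616 were kept, since most had under 500 detected genes. The kept neurons had a median of 1753.5 UMIs, against 2669 in oligodendrocyte precursors. Levels are given as CPM, the UMIs of a gene per 1000000 UMIs of the cells named, summed per library. A summed level cannot tell more expressing cells from more RNA per cell, so shares of cells with a UMI are given beside it. Across libraries, 48 cell barcodes were shared by 2 libraries, 19 of them among kept cells.

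Tac1 lies on chromosome 6 at chr6:7554879-7565834 on the plus strand and Cartpt on chromosome 13 at chr13:99898489-99901091 on the minus strand (GENCODE M21, GRCm38). The annotation has 0 genes overlapping either. The nearest coding genes are Asns, 109335 bases from Tac1, and Mccc2, 47439 bases from Cartpt. The 250 bases before each RefSeq start are shown because the levels of both genes are set side by side below. They are from RefSeq on GRCm38.p6 (Tac1 chr6:7554811-7555060, plus strand, and Cartpt chr13:99900684-99900933, minus strand), read 5′ to 3′ along the gene's strand. The outermost gene bounds of GENCODE reach into both windows. Capitals mark TGACG or its reverse complement CGTCA, the core of the cyclic AMP response element, and CACGTG, an E-box. These motifs were picked after the sequences were seen.
Tac1: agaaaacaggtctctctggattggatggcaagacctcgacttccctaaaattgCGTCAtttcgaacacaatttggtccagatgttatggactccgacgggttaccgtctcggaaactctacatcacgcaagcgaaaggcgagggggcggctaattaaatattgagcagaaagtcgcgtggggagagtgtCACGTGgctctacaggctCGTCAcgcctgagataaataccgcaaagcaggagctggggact
Cartpt: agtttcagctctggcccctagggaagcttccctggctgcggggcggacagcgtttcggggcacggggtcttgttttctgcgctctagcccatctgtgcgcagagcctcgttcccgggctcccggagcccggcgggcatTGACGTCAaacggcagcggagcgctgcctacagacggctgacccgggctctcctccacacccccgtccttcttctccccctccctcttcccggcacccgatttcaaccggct
The Cartpt window held the full palindrome TGACGTCA once, made of overlapping copies of TGACG and CGTCA. That palindrome stood in 1.55% of 32851 promoter windows of the same length. The Tac1 window held CGTCA at 2 places, a motif that stood on either strand in 17.8% of windows, and CACGTG once, which stood in 6.02%. A match describes letters in the window and not a bound site.

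Neurons held most of both transcripts. Tac1 stood at 659 ± 288 CPM in neurons (SD, n = 13 libraries), with a lowest library of 356, a median of 584 and a highest of 1116 CPM. Cartpt stood at 341 ± 115 CPM in neurons, from 182 through a median of 362 to 526 CPM. Neurons held 78.8% of all Tac1 UMIs and 94.9% of all Cartpt UMIs. In every one of the 13 libraries the neurons were above each of the next highest classes for both genes, and the ranges did not overlap. Since the authors made the classes from these cells, class differences are a description with no test.

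**Figure D1:**
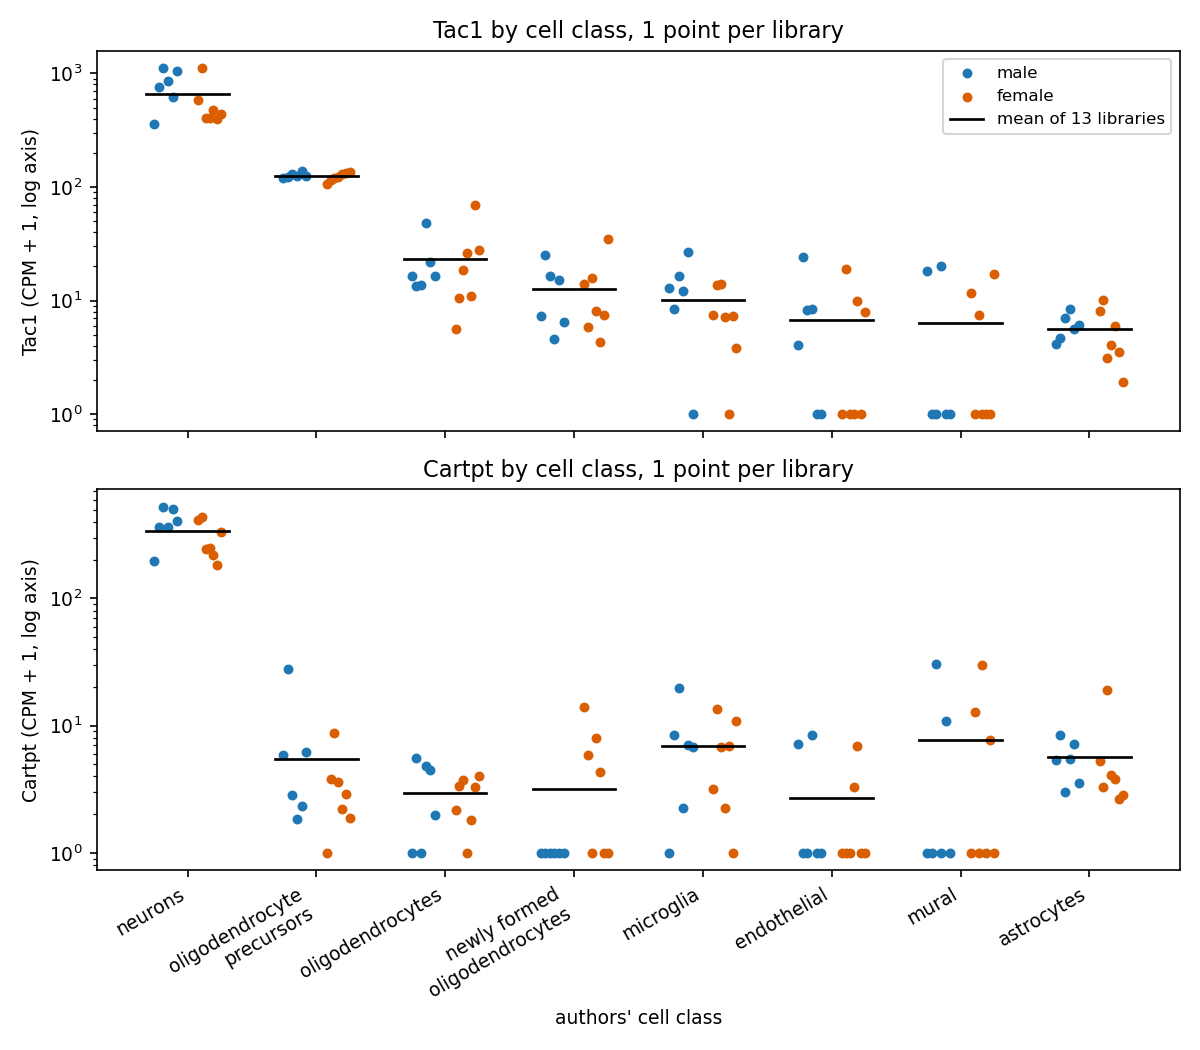
Tac1 (top) and Cartpt (bottom) in CPM + 1 on a log axis, by the authors' cell class, with 1 point per library (male blue, female orange) and a line at the mean of 13 libraries. Neurons stood highest for both genes, and oligodendrocyte precursors formed a narrow second band for Tac1 at 105 to 137 CPM.

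Oligodendrocyte precursors, the glial cells that give rise to myelinating oligodendrocytes, were second for Tac1. They stood at 124 ± 8.53 CPM (SD, n = 13), from 105 through a median of 123 to 137 CPM, so no library fell near the next class. The class label is the authors'. Known precursor markers (Pdgfra, Cspg4, C1ql1, Olig1 and Gpr17) summed to 9171 CPM in Tac1-positive and 9212 CPM in Tac1-negative precursors. At least 1 Tac1 UMI was seen in 25.5% of 4163 precursors (95% Wilson interval 24.2 to 26.8%). After each cell was thinned to 1000 UMIs, with shallower cells left out, the share was 11.3% (10.3 to 12.4%), against 0.373% (0.241 to 0.575%) of astrocytes, which serve here as the background level. Precursors with Tac1 mostly held 1 UMI (730 cells), while 225 held 2, 105 held 3 to 9 and 1 held over 9, with 27. If all precursors had the class mean level, counting alone would put a UMI in 29.5% of them, near the 25.5% seen. The same calculation gives 71.1% for Tac1 in neurons, against 19.9% seen.

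The ratio of the 2 transcripts differed between classes. Neurons held 7880 Tac1 and 4114 Cartpt UMIs, a ratio of 1.92 (95% counting interval 1.84 to 1.99). Precursors held 1557 Tac1 and 63 Cartpt UMIs, a ratio of 24.7 (19.2 to 32.3), and 28 of the Cartpt UMIs lay in 1 cell. Astrocytes, with 66 UMIs of each gene, had a ratio of 1 (0.700 to 1.43), and microglia had 1.69 (1.12 to 2.58). Of the precursors, 2458 had no UMI of the neuronal genes Snap25, Syt1, Stmn2 and Rbfox3. These held 747 Tac1 and 9 Cartpt UMIs, a ratio of 83 (43.5 to 182), with Tac1 at 121 ± 16.6 CPM (SD, n = 13). The other 1705 precursors held Tac1 at 127 ± 13.6 CPM. Intervals and floors cover counting error only.

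In mature oligodendrocytes Tac1 stood at 22.01 ± 17.6 CPM (SD, n = 13), from 4.64 through a median of 15.5 to 68.4 CPM. Male replicate 4, at 47.2 CPM, and female replicate 6, at 68.4 CPM, stood above the other libraries. The gene was seen in 3.70% of oligodendrocytes, and 10 cells held 35.4% of its UMIs there. The classes from newly formed oligodendrocytes (11.7 ± 8.98 CPM) down through microglia, endothelial and mural cells to astrocytes (4.60 ± 2.36 CPM) followed, and each overlapped its neighbour. For Cartpt, all 7 non-neuronal classes had means of 1.68 to 6.68 CPM, and each range overlapped its neighbour. Differences in Cartpt among these 7 classes were not tested.

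Precursors with a UMI of the division genes Top2a or Mki67 were set beside the others. In these 132 cells Tac1 stood at 37.9 CPM (20 UMIs), against 128 CPM in the other 4031 precursors (1537 UMIs). Over libraries it ran from 0 through a median of 24.3 to 172 CPM in the 132 cells and from 109 through 127 to 139 CPM in the others, so the ranges overlapped. After thinning, 4.92% of the cells with such a UMI had Tac1 (95% Wilson interval 2.27 to 10.3%), against 11.4% of the others (10.4 to 12.4%). The split was made after the fit described next had been seen. It views calls of that fit from the other side, so it has no test and is no separate support.

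Tac1-positive and Tac1-negative precursors were then compared over all other genes, with counts summed per library, in a comparison added after the share of positive precursors was seen. In edgeR's quasi-likelihood test 16 of 8036 genes (0.199%) passed a Benjamini-Hochberg adjusted p of 0.05, with 7 higher (0.0871%) and 9 lower (0.112%) in positive cells. DESeq2 called 8, with 7 higher and 1 lower. The genes named here were singled out after their values were seen, beyond those the naming rule gave, and no list of them was tested. Higher by 0.10 to 0.27 on the log2 scale were Atp5h, Dbi, Ndufa4, Psma7, Aldoc, S100a13 and Olig1. Among the lower genes, Prc1, a spindle midzone protein, stood at 13.03 ± 13.05 CPM in positive and 93.5 ± 56.4 CPM in negative precursors (log2 -2.99 ± 0.36, SE, edgeR adjusted p = 0.00162). Top2a, a DNA topoisomerase, stood at 13.6 ± 18.7 CPM in positive and 88.4 ± 53.2 CPM in negative precursors (log2 -2.84 ± 0.39, adjusted p = 0.00694, lower in 12 of 13 libraries). Tpx2 (-1.70), Mki67 (-3.01), Hmgb2 (-1.31), Smc4 (-0.86), Gm26527 (-0.96), Sparc (-0.41) and Hjurp (-0.32) fell as well. DESeq2 gave no adjusted p for Prc1, Top2a, Tpx2, Mki67, Hmgb2 or Smc4. With no library block the calls of Prc1, Top2a, Tpx2, Mki67 and Hmgb2 were lost (edgeR adjusted p 0.0568, 0.0592, 0.128, 0.0817 and 0.179). The Mki67 call was lost without any 1 of 9 libraries (log2 -2.81 to -3.55, edgeR adjusted p 0.00919 to 0.0769). Positive precursors were deeper (median 3509 UMIs) than negative ones (2380.5 UMIs). After thinning 0 genes passed the test, and 7 passed among precursors without the neuronal UMIs. The summed microglial markers stood at 51.7 CPM in positive precursors (35.4 to 85.7 over libraries, 7 of 7 genes detected) and 312 CPM in negative ones (24.6 to 827, 7 of 7 detected), and their part in the result was not tested.

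Within neurons, the transporters split the cells into 1373 Slc32a1 neurons, 1254 Slc17a6 neurons, 52 with both and 937 with neither. The GABA-synthesis gene Gad2 had a UMI in 75.7% of Slc32a1 neurons and 5.90% of Slc17a6 neurons, as a check of the split. Tac1 had a UMI in 25.7% of Slc32a1 neurons (95% Wilson interval 23.5 to 28.1%) and 21.2% of Slc17a6 neurons (19.0 to 23.6%). Cartpt had one in 17.6% (15.6 to 19.7%) and 17.3% (15.3 to 19.5%) of the same groups. After thinning, Tac1 was in 21.9% of Slc32a1 and 16.7% of Slc17a6 neurons, and Cartpt in 12.3% and 12.2%. Neurons with neither transporter were shallow, at a median of 1111 UMIs, and had Tac1 in 10.0% and Cartpt in 7.47% of cells.

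Expression was concentrated in few cells. The top 5% of neurons by count, 181 cells, held 75.4% of neuronal Tac1 and 84.2% of neuronal Cartpt UMIs. Of the 720 neurons with Tac1, 167 had 1 UMI, 205 had at least 10 and the highest had 312. Of the 538 neurons with Cartpt, 172 had 1 UMI, 98 had at least 10 and the highest had 318.

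Tac1 was higher in Slc32a1 than in Slc17a6 neurons. In Slc32a1 neurons it ran from 489 through a median of 988 to 1828 TMM-scaled CPM over 13 libraries, and in Slc17a6 neurons from 178 through 629.9 to 1109. The ranges overlapped, but 11 of 13 libraries were higher in Slc32a1 neurons. The means were 1015 ± 422 CPM in Slc32a1 and 612 ± 302 CPM in Slc17a6 neurons (SD, n = 13 each), a log2 difference of 0.77 ± 0.21 with the library as a block (edgeR adjusted p = 0.0228). In this comparison 17.1% of 6140 genes passed the test, 8.47% as higher and 8.68% as lower in Slc32a1 neurons, and of the 2 peptide genes 1, Tac1, passed. The call was lost with cells of at least 1000 genes (adjusted p = 0.0589), and with thinned cells the difference was 0.44 (adjusted p = 0.284).

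Cartpt was not called between the same groups. It ran from 134 through a median of 546 to 862 CPM in Slc32a1 neurons, and from 129.6 through 319.8 to 535 CPM in Slc17a6 neurons, so the groups overlapped. The log2 difference was 0.63 ± 0.24 (edgeR adjusted p = 0.104), with 10 of 13 libraries higher in Slc32a1 neurons. It passed the test without female replicate 6 (adjusted p = 0.0472) or without female replicate 7 (adjusted p = 0.0454).

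**Figure D2:**
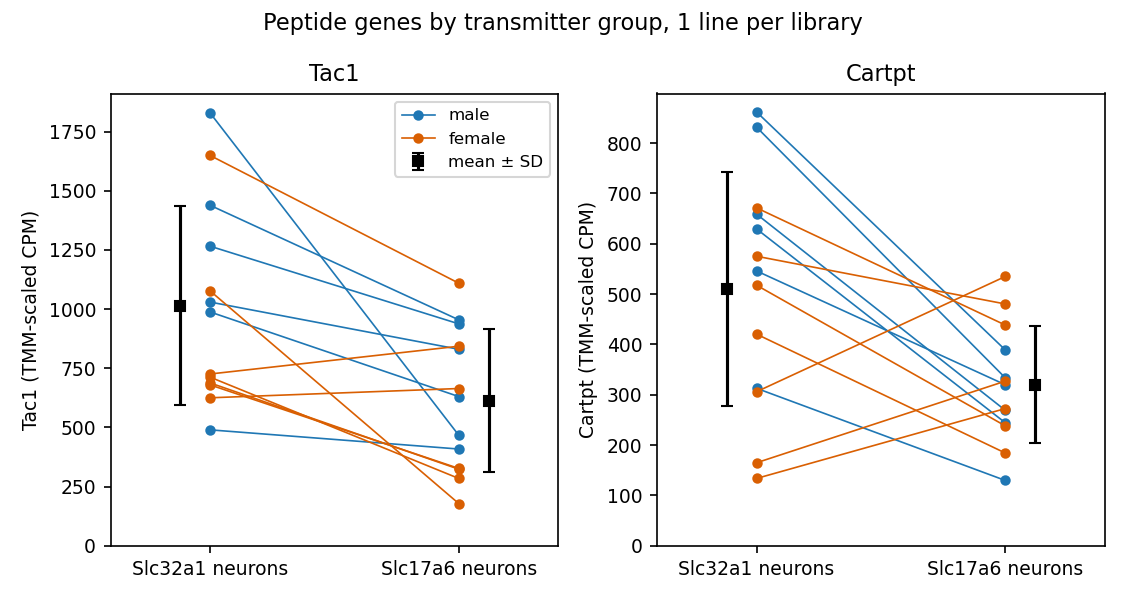
Tac1 (left) and Cartpt (right) in TMM-scaled CPM, with 1 line per library joining its Slc32a1 neurons to its Slc17a6 neurons, and squares with bars for the mean ± SD of 13 libraries. Tac1 was higher in Slc32a1 neurons in 11 libraries and Cartpt in 10.

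The receptor and processing genes were taken from lists. Of 7 genes of the tachykinin system, Tacr1, the substance P receptor, was the 1 with enough counts to test. It stood at 29.7 CPM in Slc32a1 and 60.9 CPM in Slc17a6 neurons (log2 -0.92 ± 0.34, edgeR adjusted p = 0.0780). It was called by DESeq2 (adjusted p = 0.0134), with no filter on low counts (1.2e-04), with all deposited cells (0.0282), without cluster 12 (0.0442), and without male replicate 4, female replicate 1 or female replicate 2 (edgeR adjusted p 0.00363, 0.0135 and 0.0490). Of 15 genes for peptide processing and granins, all tested, 5 were higher and 4 lower in Slc32a1 neurons, with a list median log2 of 0.12, against 0.00 over all genes. Vgf, a granin-like secreted protein, stood at 803 CPM in Slc32a1 and 383 CPM in Slc17a6 neurons (log2 1.06 ± 0.11, adjusted p = 8.3e-08). The convertase gene Pcsk2 went the other way, with 273 CPM in Slc32a1 and 759.7 CPM in Slc17a6 neurons (log2 -1.50 ± 0.09, adjusted p = 2.4e-20).

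Neither peptide gene was called between the sexes. In all neurons, Tac1 ran from 343 through a median of 829.8 to 1110.4 TMM-scaled CPM in males and from 403 through 443 to 1163 CPM in females. The groups overlapped, and the log2 difference was 0.51 ± 0.32 (edgeR adjusted p = 0.822). Cartpt ran from 189 through 395 to 528 CPM in males and from 192 through 252 to 455 CPM in females, with a log2 difference of 0.38 ± 0.26 (edgeR adjusted p = 0.826). In that comparison 6 of 9637 genes (0.0623%) were called, and neither peptide gene was under 0.05 before adjustment. Without female replicate 2, the library with the highest Tac1 among females, the Tac1 difference was 0.79 and was not called. With libraries of 9 weeks alone, the Cartpt difference was 0.08.

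By transmitter group, Tac1 in Slc32a1 neurons averaged 1137 ± 436 CPM in the 6 male libraries and 849 ± 358 CPM in the 7 female libraries (SD), with a log2 difference of 0.42 ± 0.31 (edgeR adjusted p = 0.761). In Slc17a6 neurons it averaged 717 ± 241 CPM over male libraries and 539.6 ± 351 CPM over female ones, a difference of 0.41 ± 0.42 (edgeR adjusted p = 0.998). Cartpt in Slc32a1 neurons averaged 621 ± 196 CPM over male libraries and 385 ± 199 CPM over female ones, a difference of 0.70 ± 0.38 (edgeR adjusted p = 0.677). In Slc17a6 neurons it averaged 286 ± 91.4 CPM over male libraries and 359 ± 135 CPM over female ones, a difference of -0.33 ± 0.25 (edgeR adjusted p = 0.998). The shares of genes called were 0.0891% in Slc32a1 and 0.1% in Slc17a6 neurons. None of these 4 differences was called by edgeR without any 1 library, though their sizes moved. Tac1 in Slc32a1 neurons ran from 0.25 without male replicate 6 to 0.65 without female replicate 2, and in Slc17a6 neurons from 0.27 without female replicate 4 to 0.72 without female replicate 2. Cartpt in Slc17a6 neurons ran from -0.45 without male replicate 5 to -0.19 without male replicate 1. Tac1 in precursors averaged 127 ± 6.80 CPM over male libraries and 124 ± 9.97 CPM over female ones, a difference of 0.02 ± 0.09 (edgeR adjusted p = 0.995, with 0.131% of genes called).

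Whether the sex difference itself differed between transmitter groups was tested as an interaction. For Cartpt the male minus female difference was larger in Slc32a1 than in Slc17a6 neurons by 1.12 ± 0.37 on the log2 scale, which was under 0.05 before adjustment but had an edgeR adjusted p of 0.978. In that comparison 0.0136% of 7327 genes were called. With no filter on low counts the edgeR adjusted p was 0.00903. For Tac1 the interaction was -0.17 ± 0.43 (edgeR adjusted p = 0.9999).

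Neurons with Tac1 more often had Cartpt. Without thinning, 106 Slc32a1 neurons had both genes, 247 Tac1 alone and 135 Cartpt alone, and 72 Slc17a6 neurons had both, 194 Tac1 alone and 145 Cartpt alone. Deeper cells show both genes more often, and neurons with both had medians of 3276 and 2953 UMIs in the Slc32a1 and Slc17a6 groups, against 2083 and 2048 in neurons with neither gene. Shares were therefore compared within libraries after thinning to 1000 UMIs.

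In thinned Slc32a1 neurons, Cartpt was in 6.25% through a median of 19.5% to 40.9% of Tac1-positive cells, and in 4.55% through 9.20% to 17.7% of Tac1-negative cells. The means were 20.1 ± 9.45% in positive and 9.90 ± 3.63% in negative cells (SD, n = 13 libraries, 256 positive cells), higher in 11 of 13 libraries (exact two-sided sign-flip permutation p = 0.00146, adjusted over 3 groups 0.00220). In thinned Slc17a6 neurons the means were 20.9 ± 10.3% in positive and 10.6 ± 2.93% in negative cells (SD, n = 12 libraries, 176 positive cells), higher in 11 of 12 (exact permutation p = 0.00830, adjusted 0.00830). Over all neurons the means were 19.7 ± 7.65% in positive and 8.87 ± 1.34% in negative cells (SD, n = 13), higher in 11 of 13 (exact permutation p = 9.8e-04, adjusted 0.00220). The call in Slc17a6 neurons was lost with cells of at least 1000 genes (7.32 percentage points, adjusted p = 0.197) and with positive cells defined by at least 2 UMIs (7.61 points, adjusted p = 0.107).

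**Figure D3:**
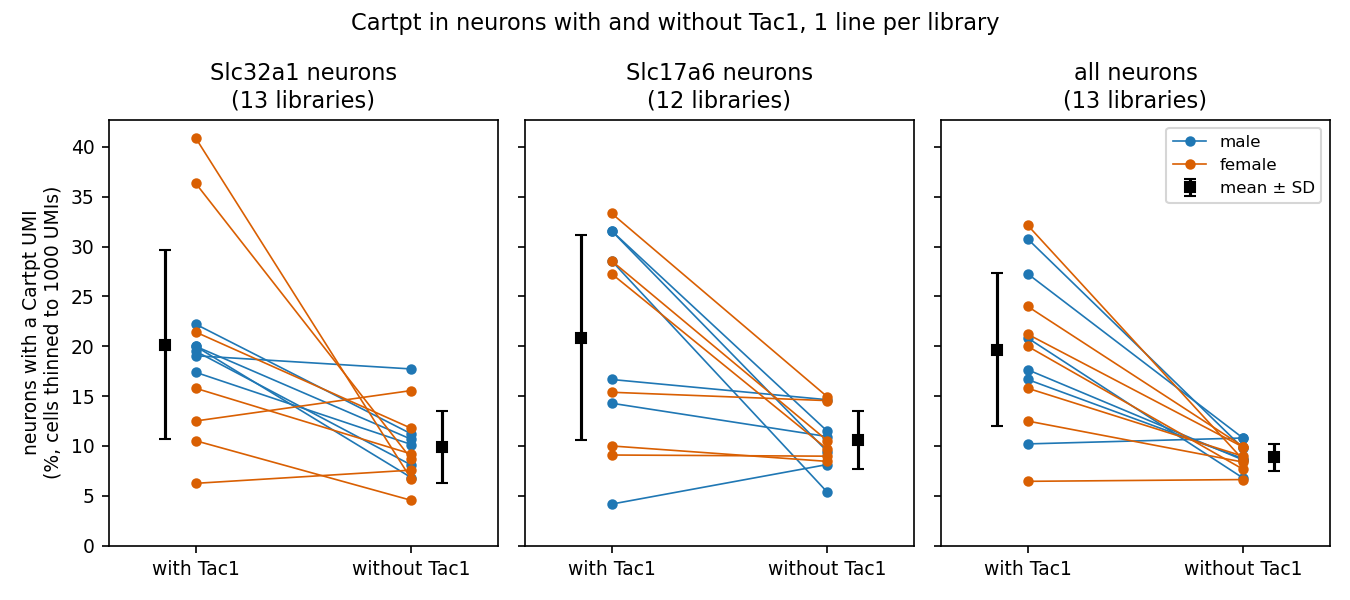
Share of neurons with a Cartpt UMI (%) among those with and without Tac1, after thinning to 1000 UMIs, with 1 line per library and squares with bars for the mean ± SD. The mean difference was 10.3 percentage points in both Slc32a1 and Slc17a6 neurons, and 10.8 over all neurons.

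The levels of each gene in cells with the other come from largely the same neurons, without thinning. They view the same association again and are no separate support. In Slc32a1 neurons, Cartpt averaged 950.3 ± 469 CPM in Tac1-positive and 361 ± 253 CPM in Tac1-negative cells (log2 1.53 ± 0.29, edgeR adjusted p = 0.00950, higher in 12 of 13 libraries). Tac1 averaged 2784 ± 1624 CPM in Cartpt-positive and 709 ± 172 CPM in Cartpt-negative Slc32a1 neurons (log2 1.79 ± 0.29, edgeR adjusted p = 0.00747). In Slc17a6 neurons, Cartpt averaged 636 ± 395 CPM in Tac1-positive and 269 ± 138 CPM in Tac1-negative cells (log2 1.24 ± 0.32, edgeR adjusted p = 0.0199). Tac1 averaged 1064 ± 919 CPM in Cartpt-positive and 554 ± 307 CPM in Cartpt-negative Slc17a6 neurons, which was not called (log2 0.71 ± 0.48, edgeR adjusted p = 0.575). Several of these calls were lost under other settings, given in the closing section.

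Unsupervised clustering of neurons, made without Tac1, Cartpt and the sex-linked genes, gave 19 clusters, all from 9 or more libraries. They describe where the peptides stood and are not tested, and they are called by number and leading genes. Cluster 16 (38 cells, led by Ucn3, Nts and Nxph2) had the highest level of both genes, with 4866 CPM of Tac1 and 1713 CPM of Cartpt. Of its cells 92.1% had Slc32a1, and 17 held both peptides. Next for Tac1 were cluster 2 (458 cells, with Slc17a6 in 89.1%, led by Adcyap1 and Bdnf) at 1947 CPM and cluster 8 (180 cells, with Slc32a1 in 94.4%, led by Npy and Moxd1) at 1797 CPM. Cluster 3 (419 cells, with Slc32a1 in 89.7%) had 1686 CPM of Tac1 and the second highest Cartpt, at 1109 CPM. These peaks depended on the Leiden resolution, and a cluster with Ucn3 among its leading genes was found at resolution 1 alone of the 3 tried. At resolution 0.5 Tac1 was highest, at 1816 CPM, in a cluster led by Npy and Moxd1, and Cartpt, at 1065 CPM, in one led by Gm27031 and Slc32a1. At resolution 2, among clusters of at least 30 cells, Tac1 was highest, at 2515 CPM, in one led by Adcyap1 and Bdnf, and Cartpt, at 1291 CPM, in one led by Trh.

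Some clusters held mostly 1 of the genes. Cluster 6 (224 cells, led by Trh, with Slc17a6 in 97.8%) had Cartpt at 713 CPM and Tac1 at 62.0 CPM. Cluster 18 (29 cells, led by C130060K24Rik and Cbln4) had Tac1 at 878 CPM and Cartpt at 90.6 CPM. Cluster 7 (196 cells, led by Ndnf) had 0 Tac1 UMIs, which allows a share of up to 1.53% of cells with a UMI, and cluster 17 (35 cells) also had 0, which allows up to 8.57%. Cluster 11 (150 cells, led by Scn10a) had 0 Cartpt UMIs, which allows up to 2%. Cluster 12 (134 cells, median 13394 UMIs) had both transporters, in 53.0% (Slc32a1) and 49.3% (Slc17a6) of its cells. It held 18.1% of neuronal Tac1 UMIs, and 1 library gave 58.1% of those. Clusters 4, 15 and 19 were led by glial genes such as Mbp, Agt and Ctss.

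**Figure D4:**
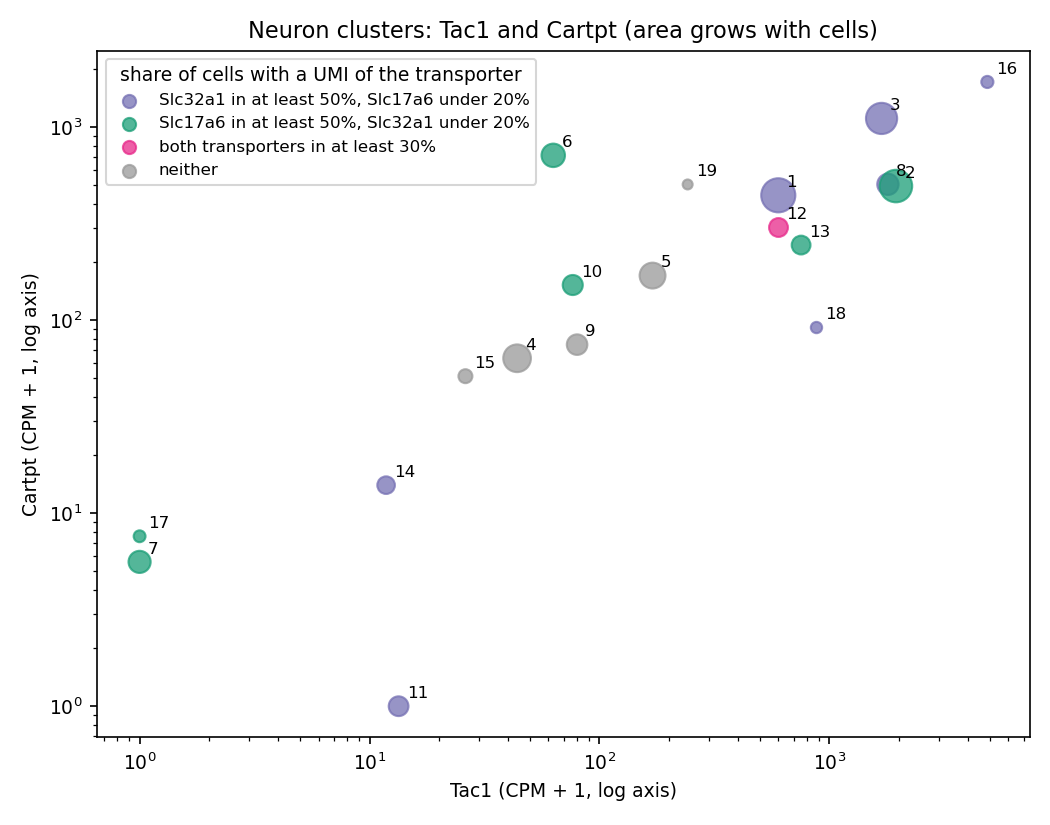
Tac1 against Cartpt in CPM + 1 (log axes) in 19 neuron clusters, numbered, with point area growing with the number of cells. Colour gives a class by the shares of cells with each transporter: mainly Slc32a1, mainly Slc17a6, both, or neither. At this resolution (1) cluster 16 stood highest for both genes, while no cluster was highest for both at 0.5 or 2, and cluster 6 had Cartpt at 713 CPM with Tac1 at 62.0 CPM.

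Over the 19 clusters, the genes most like Tac1 by Pearson's r of log2(CPM + 10) were Gabrq (0.889), Col25a1 (0.879), Slit2 (0.857), Cartpt (0.855) and Fndc9 (0.842). Those most like Cartpt were Gpx3 (0.900), Tac1 (0.855), Htr2c (0.814), Gabrq (0.811) and Htr1a (0.806). Gabrq encodes a GABA-A receptor subunit, Gpx3 a secreted glutathione peroxidase, and Htr2c and Htr1a serotonin receptors. The clusters share libraries and differ in depth, so these are descriptions over 19 points. Clusters 4, 15 and 19, led by glial genes, are among the points. The genes named depended on the resolution. At Leiden resolution 2 those most like Tac1 were Chodl, Pcdh19, Cntnap3, Pgr15l and Hapln4. Those most like Cartpt were Efna5, Gpx3, Zdhhc2, Gabrg1 and Fstl5. At Leiden resolution 2, with 30 clusters, r between Tac1 and Cartpt was 0.769 and at that resolution and at 0.5 neither was among the other's 5 most alike genes.

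Genes that went with Tac1 in Slc32a1 neurons were found by comparing positive with negative cells per library. Of 3729 genes 86 (2.31%) were called, 33 higher (0.885%) and 53 lower (1.42%) in Tac1-positive neurons. The neurexophilins Nxph1 and Nxph2, secreted ligands of neurexins, rose: Nxph1 averaged 519 ± 224 CPM in positive and 192 ± 92.9 CPM in negative neurons (log2 1.46 ± 0.16, edgeR adjusted p = 1.3e-08, 13 of 13 libraries), and Nxph2 had a log2 difference of 1.75 ± 0.21. Dlk1, a membrane protein related to Notch ligands, averaged 548 ± 367 CPM in positive and 78.7 ± 48.9 CPM in negative neurons (log2 2.71 ± 0.34, adjusted p = 2.8e-04). Moxd1 (log2 2.31), Arhgap36 (2.15), Thsd7a (1.11) and the guidance ligand gene Slit2 (1.01) were higher as well.

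Lower in Tac1-positive Slc32a1 neurons were Cacng5, an auxiliary subunit of AMPA receptors (20.8 ± 22.2 CPM in positive and 117 ± 42.5 CPM in negative neurons, log2 -2.28 ± 0.30, edgeR adjusted p = 9.3e-07), and the vesicle protein gene Synpr (84.2 ± 58.1 CPM in positive and 359.9 ± 206 CPM in negative neurons). Cpne5, Cxcl14, Lypd1, Slc35f1, Sorcs3 and Sez6 fell by 1.67, 1.52, 1.25, 1.15, 1.08 and 1.05 on the log2 scale. From the lists, Pcsk1n (log2 0.49 ± 0.09) and the granin gene Chgb (0.35 ± 0.09) rose among 15 peptide processing genes. Ucn3 rose among 7 tested genes of the neuropeptide list (log2 3.44 ± 0.77, edgeR adjusted p = 0.0333). That list also holds Nxph4, a neurexophilin gene. The Ucn3 call was lost without any 1 of 11 libraries (edgeR adjusted p 0.00639 to 0.0786), and the Chgb call without any 1 of 4. Calb1 rose and Reln fell among 8 tested interneuron genes, Meis2 was among 2 of 6 tested striatal genes that fell, and 1 of 8 tested receptors rose. Gabrg1 rose and Grin3a fell among 24 tested genes of GABA and glutamate transmission. The list medians were 0.06, 0.54, 0.51, -0.52 and 0.02 on the log2 scale for processing, neuropeptide, interneuron, striatal and transmission genes, against 0.01 over all genes. Of 6 transcription factors and 1 immediate early gene tested, 0 were called by edgeR.

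The summed interneuron markers stood at 6368 CPM in Tac1-positive Slc32a1 neurons (1212 to 19311 over libraries, 8 of 8 detected) and 3648 CPM in Tac1-negative ones (295 to 10400, 8 of 8 detected). The sum does not mean that every member was higher, since Reln, a member, was called lower with Tac1. Hypothalamic markers, pooled over libraries, summed to 600.0 CPM in positive neurons (0 to 2229, 3 of 4 detected) and 161 CPM in negative ones (0 to 2247, 4 of 4 detected). Their library medians were far lower, at 24.5 CPM in positive and 8.90 CPM in negative neurons. Positive neurons were also deeper (median 2899 UMIs) than negative ones (2140.5). Their part in the calls was not tested. With thinned cells, where 500 genes could be tested, 31 were called.

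In Slc17a6 neurons more genes went with Tac1, 390 of 3651 (10.7%), with 248 higher (6.79%) and 142 lower (3.89%) in Tac1-positive cells. With DESeq2 size factors in the same fit the split was 190 higher and 178 lower. Gpx3 averaged 828 ± 349 CPM in positive and 359 ± 67.5 CPM in negative neurons (log2 1.10 ± 0.17, edgeR adjusted p = 2.4e-05). Trhr, the receptor for thyrotropin-releasing hormone, averaged 503 ± 226 CPM in positive and 179 ± 80.3 CPM in negative neurons (log2 1.42 ± 0.24). Cd36, a fatty acid scavenger receptor (1.65), Fndc9 (1.54), the glycine receptor subunit gene Glra1 (1.37), Wfs1 (1.15) and the protocadherins Pcdh17 (1.18) and Pcdh20 (1.12) were also higher on the log2 scale. Lower in positive cells were Reln, a secreted matrix protein (55.1 ± 55.8 CPM in positive and 341 ± 167 CPM in negative neurons, log2 -2.30 ± 0.34), Msi2, Ap1s2, Synpr, Diablo, Cacna2d2, H3f3b and Ramp1.

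Of 14 tested genes for peptide processing and granins, 6 rose with Tac1 in Slc17a6 neurons, 8 did not pass and 0 fell (median log2 0.43, against -0.05 over all genes). Pcsk1n, which encodes an inhibitor of the convertase PC1/3, averaged 7112 CPM in positive and 3729 CPM in negative neurons (log2 0.88 ± 0.15, edgeR adjusted p = 1.2e-04). The amidating enzyme gene Pam (0.90), the convertase gene Pcsk1 (0.80), the granins Scg2 (0.69) and Chgb (0.65), and Scg5 (0.43) also rose. With DESeq2 size factors 4 of the 14 rose and Pcsk1 and Scg5 were not called, and with thinned cells the same 4 rose of 12 tested. The Pcsk1 call was lost without any 1 of 5 libraries (edgeR adjusted p 0.0103 to 0.0933) and the Scg5 call without any 1 of 10 (0.0181 to 0.159). Without cluster 12, 9 of 14 rose and 1 fell. Of 9 tested neuropeptide and hormone receptor genes 5 rose (Prlr, Sstr2, Sstr1, Npy1r and Nr3c1) and 0 fell, with a median of 0.71. The Nr3c1 call was lost without male replicate 2 and without cluster 12, and the Npy1r call without male replicate 5 or female replicate 6. Over all other processing settings where each was tested, the calls held in 8 of 11 for Nr3c1 and 8 of 10 for Sstr2. They held in 9 of 11 for Npy1r, 10 of 11 for Sstr1 and 11 of 11 for Prlr. Of 23 transmission genes 6 rose, Gabra2, Gabra3, Gabra5, Gabrb1 and Grik1 among them, and 0 fell, with a median of 0.37. With DESeq2 size factors 5 rose, and with thinned cells edgeR called 0 of 11. Over other processing settings the Gabra3 call held in 8 of 12 (log2 0.05 to 0.57) and Gabra5 in 9 of 12. Gabrb1 held in 9 of 11, Gabra2 in 10 of 11 and Grik1 in 9 of 9. Among 6 tested genes of the neuropeptide list, the dynorphin gene Pdyn rose (1.26 ± 0.30) and Cck fell (-0.86 ± 0.21). Nxph4, a neurexophilin gene on that list and not a neuropeptide gene, fell as well (-1.56 ± 0.29). Of 6 tested interneuron genes Nos1 (1.05) and Calb1 (0.75) rose and Reln, Cck and Cnr1 fell, with the Calb1 call lost without any 1 of 10 libraries and the Cnr1 call without any 1 of 3. Pdyn was the 1 called among 5 striatal genes, Jun fell (-1.28 ± 0.30) among 3 immediate early genes, and 0 of 4 transcription factors were called by edgeR.

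Markers of Cajal-Retzius cells, an early-born cortical type rich in reelin, summed to 123 CPM in Tac1-positive Slc17a6 neurons (0 to 326 over libraries, 4 of 5 detected) and 1104 CPM in Tac1-negative ones (150 to 2289, 5 of 5 detected). Astrocyte markers summed to 485 CPM in positive neurons (228 to 766, 6 of 6 detected) and 922 CPM in negative ones (295 to 1746, 6 of 6 detected). Their part in the calls was not tested. The count of called genes was 70 with thinned cells, 867 without cluster 12, and 252, 246 and 250 without male replicate 4, male replicate 5 and female replicate 7.

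Of the 33 genes higher with Tac1 in Slc32a1 neurons, 12 were also higher with it in Slc17a6 neurons (36.4% of the 33 and 4.84% of the 248), with Cartpt, Gpx3, Slit2, Chgb, Pcsk1n, Pcdh17 and Resp18 among them. Of the 53 genes lower with Tac1 in Slc32a1 neurons, 3 (5.66%) were among the 142 lower with it in Slc17a6 neurons: Reln, Sez6 and Synpr. Over all genes tested in Slc17a6 neurons, 6.79% were higher and 3.89% lower with Tac1. In both groups 3387 genes were tested, and the overlaps were not tested. Cxcl14, a chemokine, was lower with Tac1 in Slc32a1 neurons (181 ± 79.0 CPM in positive and 516 ± 206 CPM in negative cells) and higher with it in Slc17a6 neurons (197 ± 125 CPM in positive and 95.1 ± 43.1 CPM in negative cells, log2 0.99 ± 0.23), a difference that was not itself tested.

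**Figure D5:**
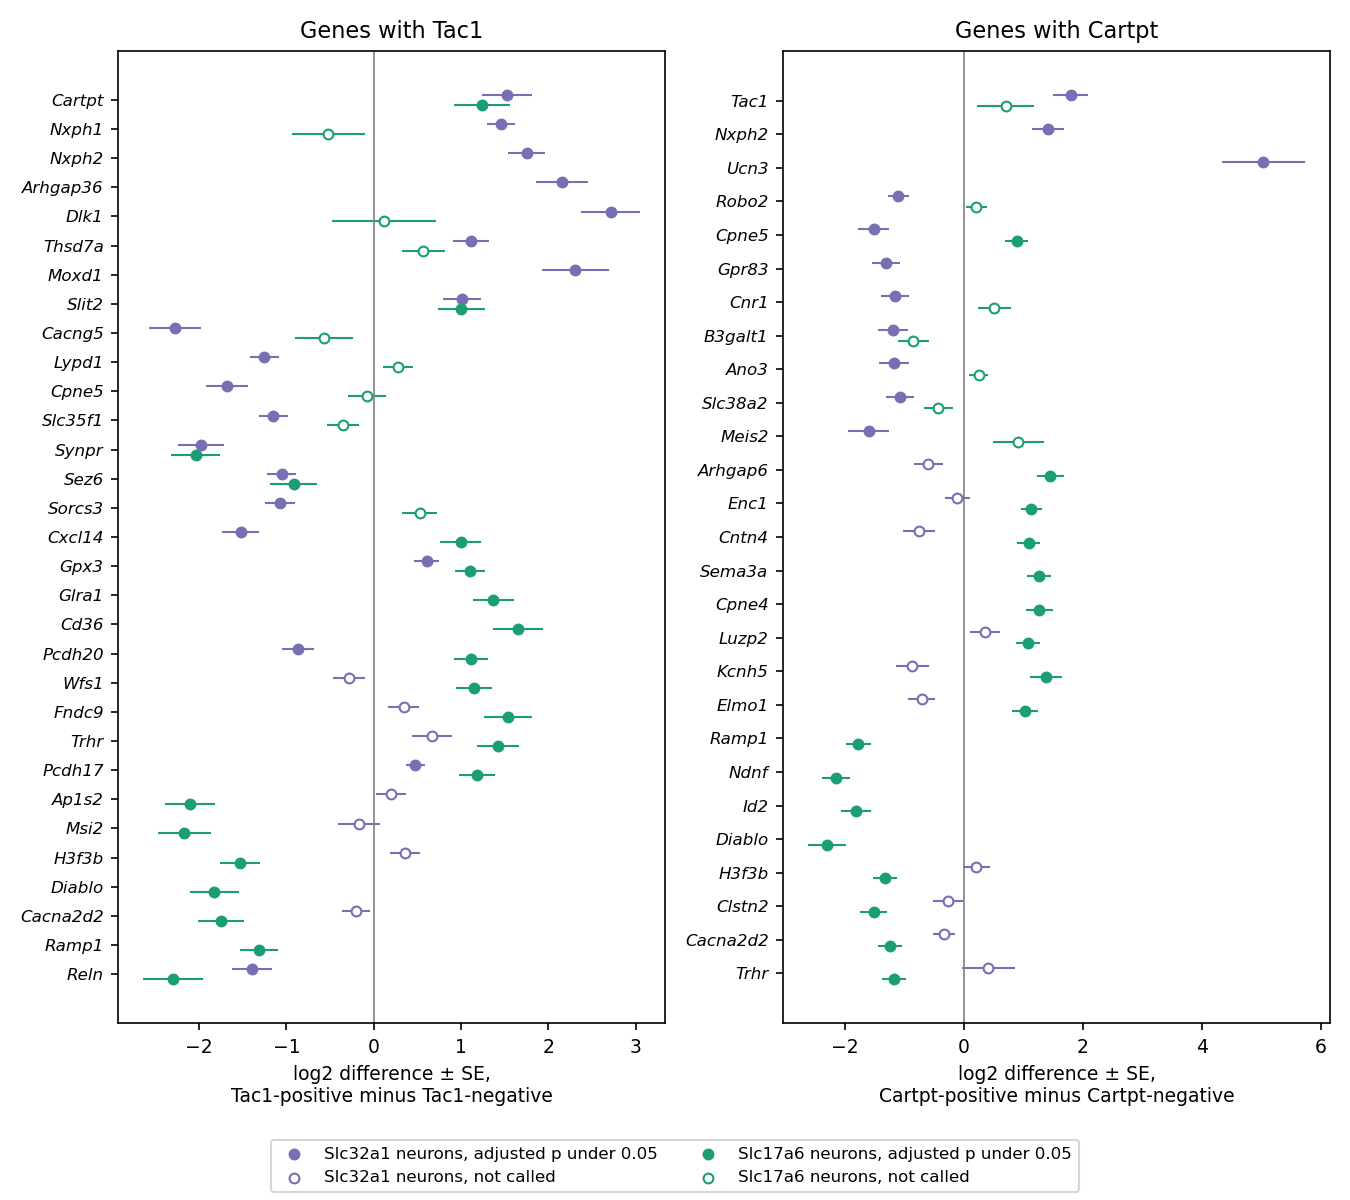
Log2 differences ± SE of the named genes between Tac1-positive and Tac1-negative neurons (left) and between Cartpt-positive and Cartpt-negative neurons (right), in Slc32a1 (purple) and Slc17a6 (green) neurons, with filled points called at an adjusted p under 0.05 and a missing point for a gene not tested there. Ucn3 with Cartpt in Slc32a1 neurons reached 5.04, and Cpne5 had opposite signs with Cartpt in the transmitter groups (-1.52 in Slc32a1 and 0.89 in Slc17a6 neurons).

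Fewer genes were called with Cartpt than with Tac1 in the main fits, where fewer neurons were positive. Positive cells numbered 241 with Cartpt and 353 with Tac1 in Slc32a1 neurons, and 217 and 266 in Slc17a6 neurons. With no filter on low counts, 187 genes were called with Cartpt and 181 with Tac1 in Slc32a1 neurons. The part of cell number was not tested. In Slc32a1 neurons 29 of 3329 (0.871%) were called, 6 higher (0.18%) and 23 lower (0.691%) in Cartpt-positive cells. Ucn3, which encodes urocortin 3, a ligand of the CRH receptor type found in the amygdala and hypothalamus, ran from 178 through a median of 685 to 2617 CPM in positive neurons and from 0 through 8.80 to 196 CPM in negative neurons. Every one of 13 libraries was higher in positive cells (log2 5.04 ± 0.70, edgeR adjusted p = 0.00363). Nxph2 averaged 212 ± 141 CPM in positive and 80.9 ± 38.8 CPM in negative neurons (log2 1.41 ± 0.27, adjusted p = 0.00250). Lower with Cartpt were Robo2, a receptor for Slit ligands (188 ± 83.3 CPM in positive and 398 ± 144 CPM in negative neurons, log2 -1.10 ± 0.18), the cannabinoid receptor gene Cnr1, the transcription factor gene Meis2, and Cpne5, Gpr83, B3galt1, Ano3 and Slc38a2. Of 15 peptide processing genes Scg2 rose (log2 0.68 ± 0.14) and 0 fell, with a median of 0.07 against 0.01 over all genes. Of 24 transmission genes 2 fell, Grm5 (-0.64) among them, a call lost without male replicate 3 or male replicate 6. The Grm5 call held in 8 of 12 other processing settings (log2 -0.84 to -0.13). The Meis2 call was lost without female replicate 2 (edgeR adjusted p = 0.0952). The Meis2 call was also lost with no library block (0.264), at least 1000 genes (0.0639) or positive cells at 2 UMIs (0.109). The Cnr1 call was lost with no library block (edgeR adjusted p = 0.122) or without cluster 12 (0.243), and the Slc38a2 call with all deposited cells (0.0675), positive cells at 2 UMIs (0.0642) or without cluster 12 (0.0631). Ucn3 was the 1 called among 7 genes of the neuropeptide list, Cnr1 among 8 interneuron genes and Meis2 among 4 striatal genes. Of 6 receptors, 6 transcription factors and 2 immediate early genes tested, 0 were called by edgeR. Interneuron markers summed to 3169 CPM in Cartpt-positive Slc32a1 neurons (777 to 16176 over libraries) and 4913 CPM in negative ones (641 to 11626), with 8 of 8 detected in both. Hypothalamic markers, pooled over libraries, summed to 722 CPM in positive neurons (0 to 3947, 4 of 4 detected) and 173 CPM in negative ones (0 to 816, 3 of 4 detected). Their library medians were far lower, at 20.4 CPM in positive and 6.23 CPM in negative neurons. The part of the interneuron and hypothalamic markers was not tested.

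In Slc17a6 neurons 98 of 3583 genes (2.74%) were called, 59 higher (1.65%) and 39 lower (1.09%) in Cartpt-positive cells. Trh, the precursor of thyrotropin-releasing hormone, averaged 1735 CPM in positive and 233 CPM in negative neurons and was higher in 13 of 13 libraries (log2 2.71 ± 0.40, edgeR adjusted p = 0.00165). The neuropeptide gene Cck also rose (log2 0.87 ± 0.20). The guidance ligand gene Sema3a averaged 619.8 ± 323 CPM in positive and 249.4 ± 117 CPM in negative neurons (log2 1.27 ± 0.20), and Arhgap6, Kcnh5, Cpne4, Enc1, Cntn4, Luzp2 and Elmo1 rose by 1.03 to 1.46. Chga (0.75), Vgf (0.97) and Pcsk2 (0.59) rose among 14 tested processing genes and 0 fell, with a median of 0.04 against -0.01 over all genes. Trh and Cck were the 2 called among 5 tested genes of the neuropeptide list, and Cck the 1 among 6 interneuron genes. The Vgf call was lost without female replicate 2 and the Cck call without female replicate 5. Over other processing settings the Cck call held in 9 of 12, Pcsk2 in 10 of 12, Vgf in 11 of 12 and Chga in 12 of 12. Grik1 (1.11) and Gabrg1 (0.84) rose and Gabra5 fell (-0.96) among 22 transmission genes, and Nr2f1 fell (-0.76) among 4 transcription factors, a call lost without any 1 of 9 libraries. Of 8 receptors, 5 striatal and 3 immediate early genes tested, 0 were called by edgeR.

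Lower with Cartpt in Slc17a6 neurons were Ndnf, a secreted factor (184 ± 149 CPM in positive and 811 ± 419 CPM in negative neurons, log2 -2.15 ± 0.23, edgeR adjusted p = 1.1e-07), and Ramp1, which pairs with the receptor for the peptide CGRP (135 ± 81.1 CPM in positive and 486 ± 204 CPM in negative neurons). Id2, Diablo, H3f3b, Clstn2, Cacna2d2 and Trhr were lower too. Cajal-Retzius markers, which include Ndnf, summed to 303 CPM in Cartpt-positive cells (72.4 to 854 over libraries, 5 of 5 detected) and 1074 CPM in negative ones (161 to 2538, 5 of 5 detected), and their part was not tested. Astrocyte markers summed to 456 CPM in positive cells (264 to 809, 6 of 6 detected) and 943 CPM in negative ones (350 to 1813, 6 of 6 detected). Trhr fell with Cartpt and rose with Tac1 in Slc17a6 neurons, and these comparisons share most of their cells. Between transmitter groups, 3139 genes were tested with Cartpt in both. Of the 6 genes higher with Cartpt in Slc32a1 neurons, 0 were among the 59 higher with it in Slc17a6 neurons. Of the 23 lower ones, 1 (Pcdh8, 4.35%) was among the 39 lower in Slc17a6 neurons. Over all genes tested in Slc17a6 neurons, 1.65% were higher and 1.09% lower with Cartpt. The sets are small, and the overlaps were not tested.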

How the data were processed

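Drop-seq libraries of dissociated medial amygdala from 13 samples were analysed. The authors deposited 1 table of raw UMI counts, genes by cells, with no normalization. Per the submitters' processing notes, bcl2fastq 2.17.1.14 and STAR 2.5.0a were used with the mm10 build. UMI collapsing, cell selection and counting strand: not given in the sources used here. Library and class were read from the cell names, and cell classes are the authors'.

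A cell needed at least 500 genes to enter, and Scrublet marked 269 doublets (1.08%), which were taken out. Counts were summed per library. The main test was edgeR 4.0.16 (quasi-likelihood F test, TMM, filterByExpr, two-sided) in R 4.3.3, adjusted by Benjamini-Hochberg over every gene in the fit and called below 0.05. The library was a block wherever cells of 1 library stood on both sides, and a library entered with at least 5 cells on each side. A positive cell had at least 1 UMI, and the gating gene was left out. The SE is the log2 difference divided by the square root of F. Co-expression was tested by an exact sign flip over libraries. Clusters came from scanpy 1.11.5 (2000 variable genes, 30 components, 15 neighbours, Leiden resolution 1). The fits were tested on simulated data. DESeq2 1.42.0 was an alternative. With counts summed over neurons, no pair of libraries agreed within UMI counting noise: over 36 same-sex pairs the chi-square per gene was 1.91 to 7.43. This value takes each UMI as an independent draw, so it cannot tell differences between libraries from those between the cells sampled. Same-numbered male and female libraries did not deviate together in neurons (correlations -0.06 to 0.08). A count of 0 allows 3 UMIs.

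Named genes were up to 8 per direction with the smallest adjusted p, a log2 difference of at least 1 and at least 50 CPM, with called members of 9 lists, up to 6 a list. Some of these genes are not reported here, though every gene stayed in the fits and counts. The members, lists and tests were chosen with earlier results of these data known.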

Additional observations from a re-analysis of the deposited data

Results flagged for a closer look

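In 26 sets of libraries (6 male or 7 female), 5 held a library whose gap to the nearest other library passed Dixon's 95% value. Chance flags about 1 in 20 groups. Tac1 in neurons of female replicate 2 stood at 1116 CPM, above the other females, at 396 to 584 CPM. Without it, the male minus female difference in all neurons was 0.79 on the log2 scale and was still not called. The same library stood highest in neurons with neither transporter (569 CPM). Tac1 in oligodendrocytes stood apart in male replicate 4 (47.2 CPM) and female replicate 6 (68.4 CPM). In newly formed oligodendrocytes female replicate 7 stood at 33.7 CPM, which rests on 7 UMIs.

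Pcdh20, a protocadherin gene, went with Tac1 in opposite directions in the transmitter groups. It was lower with Tac1 in Slc32a1 neurons in all 13 libraries (log2 -0.87 ± 0.18) and higher with it in Slc17a6 neurons in all 13 (log2 1.12 ± 0.20). The difference between the groups was not tested.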

How the results depend on the processing

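Tac1 was no longer called between Slc32a1 and Slc17a6 neurons with no library block (log2 0.73, edgeR adjusted p = 0.0767), with at least 1000 genes (0.80), with thinned cells (0.44) and, in an alternative added after seeing the data, without cluster 12 (0.79, adjusted p = 0.0518), while it stayed called without each library in turn (0.65 to 0.85). Cartpt ran from 0.56 to 0.76 without each library. Co-expression in Slc17a6 neurons missed the threshold with at least 1000 genes (7.32 points) and with positive cells at 2 UMIs (7.61 points), and was 9.11 to 11.6 points without each library. In the interaction of sex and transmitter, Cartpt passed with no filter on low counts (log2 1.12, DESeq2 calling 0 genes in that comparison and 149 at an unadjusted p under 0.05), and Tac1 changed sign with all deposited cells (0.025) and with at least 1000 genes (0.15), running from -0.41 to 0.077 without each library. Tac1 between the sexes in precursors changed sign with libraries of 9 weeks alone (-0.024), running from -0.0063 to 0.046 without each library. The replicate block over numbers 1 to 6 gave no call for either gene (all neurons 0.48 for Tac1 and 0.42 for Cartpt, Slc32a1 neurons 0.36 and 0.73, Slc17a6 neurons 0.43 and -0.20, and precursors 0.055 for Tac1).

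Counts of called genes depended more on the settings. With no filter on low counts they were 181 (Tac1 in Slc32a1 neurons), 740 (Tac1 in Slc17a6), 187 (Cartpt in Slc32a1), 416 (Cartpt in Slc17a6) and 172 (Tac1 in precursors). With thinned cells they were 31, 70, 18, 35 and 0 in the same order, where 0 comes from edgeR with 152 genes at an unadjusted p under 0.05. Without cluster 12 they were 867 (Tac1 in Slc17a6), 69 (Cartpt in Slc32a1) and 305 (Cartpt in Slc17a6). A transmitter gate at 2 UMIs gave 151 for Tac1 in Slc17a6 neurons, and at least 1000 genes gave 18 for Cartpt in Slc32a1 neurons. In precursors the count was 8 by DESeq2, 2 with no library block, 28 with all deposited cells, 8 with positive cells at 2 UMIs and 7 without neuronal UMIs, and it fell to 10 without female replicate 2 or without female replicate 4. Without each library in turn the counts were 68 to 95, 246 to 528, 23 to 36, 78 to 130 and 10 to 23 in the same order. The thinned fits tested 500, 426, 416, 395 and 2369 genes in the same order. Otherwise the cause was not tested.

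Cartpt with Tac1 was no longer called in Slc32a1 neurons with at least 1000 genes (edgeR adjusted p = 0.0761), thinned cells (0.142) or without cluster 12 (0.0775), and in Slc17a6 neurons with at least 1000 genes (0.0865) or positive cells at 2 UMIs (0.124). Tac1 with Cartpt in Slc32a1 neurons was lost with at least 1000 genes (0.181). Between Tac1-positive and Tac1-negative or Cartpt-positive and Cartpt-negative neurons, 0 of the 7 tachykinin genes had enough counts to test. The part of depth in this was not tested.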
